A study of Rattus norvegicus with 15 samples.

Results

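Voltage-gated calcium, sodium and potassium channels, together with the other potassium channels and the hyperpolarization-activated channels, were followed in the rat retina through a morning in light or in darkness. Their subunits were found by the gene symbol of each probe set, a group of short oligonucleotides that reports 1 transcript on the array. A probe set was taken when its only symbol named a potassium channel pore or auxiliary subunit (*Kcn* genes), a sodium channel α or β subunit (*Scn*), a calcium channel α1, α2δ, β or γ subunit (*Cacna*, *Cacnb*, *Cacng*) or an HCN channel (*Hcn*). The choice gave 181 probe sets of 114 genes, out of 31099 probe sets and 14218 genes with a symbol of their own. Each gene stands here with its brightest probe set, and for a number of the 42 genes with several probe sets the others are given beside it. Apart from that brightness, the rule uses symbols only. RefSeq lists 137 rat genes of these kinds, and 23 of them were not analysed here.

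Adult Long Evans rats were kept in darkness overnight, and the control retinas, 0 ZT dark, were collected at clock hour 7. Further animals stayed in darkness until clock hour 10 (3 ZT dark) or 13 (6 ZT dark), or received steady light of 1000 lux for 3 h (3 ZT light) or 6 h (6 ZT light) up to the same clock hours. There were 3 replicas of each condition, 15 arrays in all, and every animal was of the same strain with no genetic change. For 6 ZT light the sample titles and the methods give 6 h of light whereas another label gives 3 h, and the former was used. How the replicas arose is not described further. The p-values accordingly reflect only how far these 15 samples scatter, part of which can be technical, and precision is bounded by there being 3 arrays a condition.

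The deposited values are log2 intensities, which rank samples for 1 probe set but not different genes against each other, since probe sets bind unequally. The 7 rod genes measured as markers of the tissue lay at means of 13.04 to 15.39. Markers of neighbouring tissues were also measured, the 12 lens markers at list means of 8.71 to 12.68 over the arrays and the 9 markers of the retinal pigment epithelium at 10.63 to 12.24. Median log2 values were 8.28 to 8.32 in the arrays of replica 1, 8.58 to 8.68 in replica 2 and 8.75 to 8.81 in replica 3, so comparisons were made between samples of one number. Signal from the 5′ end of *Actb*, which RNA degradation lowers, was weakest relative to the 3′ end in 0 ZT dark replica 1 (log2 difference 2.10) and 3 ZT light replica 2 (2.40), against 0.708 to 1.37 elsewhere. Of the 114 channel genes, 64 lay below the median probe set and 29 below 6.99, the lower quartile of all probe sets. In whole retina, fewer cells of a type and less RNA per cell cannot be told apart.

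Each channel of this kind has a pore, built of α subunits, through which calcium, sodium or potassium flows, and many pores carry auxiliary subunits that set their surface number and their kinetics. In photoreceptors, potassium and HCN channels shape the voltage response to light, and L-type calcium channels at the ribbon synapse turn that voltage into glutamate release. Müller glia and the pigment epithelium clear potassium through inward rectifiers, and amacrine and ganglion cells fire spikes with sodium channels and fast potassium channels.

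No channel gene passed an adjusted p of 0.05 in any of 7 comparisons with limma, which fits a linear model per probe set, here to the 31042 that are not controls. Over all probe sets 1 passed in 3 ZT light against 0 ZT dark (0.00322%) and 1 in 3 ZT light against 3 ZT dark (0.00322%), and in the other 5 comparisons none did (0.0%). The lowest adjusted p among the channel genes was 0.355, for *Kcne4* in 6 ZT light against 0 ZT dark. At an unadjusted p under 0.05, 5 channel genes were higher and 2 lower in that comparison (3.92% and 2.26% of all probe sets), and 4 were higher and 12 lower in 6 ZT light against 6 ZT dark (5.56% and 2.97%). For 6 ZT dark against 0 ZT dark 5 were higher and 2 lower (3.47% and 5.26%). For 3 ZT light, 3 were higher and 1 lower than in 0 ZT dark (3.25% and 4.43%), and 1 was higher and 3 lower than in 3 ZT dark (1.96% and 2.64%). None reached that p in 3 ZT dark against 0 ZT dark (0.477% and 0.776%), with an adjusted p of 1.0 for each. For the light effect at 6 ZT minus that at 3 ZT, 1 was higher and 7 were lower (4.14% and 1.81%).

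By the rule of a ratio above 1.6 or below 0.7 in all 3 replicas, no channel gene was up-regulated or down-regulated between 2 conditions with its brightest probe set. Against 0 ZT dark the rule was met by 0.058% (up) and 0.0741% (down) of all probe sets in 3 ZT light, by 0.0709% in each direction in 6 ZT light, by 0.0% and 0.0161% in 3 ZT dark and by 0.0644% and 0.287% in 6 ZT dark. In light against darkness it was met by 0.0161% (up) and 0.0322% (down) at 3 ZT and by 0.0548% and 0.0387% at 6 ZT. Of the 181 channel probe sets, 1 was up-regulated, the dimmest of 3 for *Cacnb2*, in 6 ZT light.

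The direction of the small differences was uneven in 6 ZT light against 6 ZT dark. Of the 114 channel genes 99 were lower and 15 higher in light, with a median log2 difference of −0.12, while over all probe sets the median was −0.01 and 48.02% were higher. The replica medians of the channel genes were −0.07, −0.15 and −0.05, with 75, 75 and 67 of the 114 lower. The genes were read from the same arrays and are not separate observations. In 3 of 3 replicas 30 channel genes were lower and 4 higher, against 13.5% and 17.2% of all probe sets. Among the 50 channel genes above the median signal 43 were lower (median −0.18), where all probe sets above it had a median of 0.05. Their replica medians were −0.42, 0.0 and 0.0, so that replica 1 carried this difference. Among the 64 below the median signal 56 were lower (median −0.10), where all probe sets below it had −0.05. The replica medians of these 64 were −0.03, −0.18 and −0.06. With each array left out in turn between 83 and 99 genes were lower. The 83 came without 6 ZT light replica 1, where 31 were higher, and 25 and 23 were higher without replicas 1 and 2 of 6 ZT dark.

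**Figure D1:**
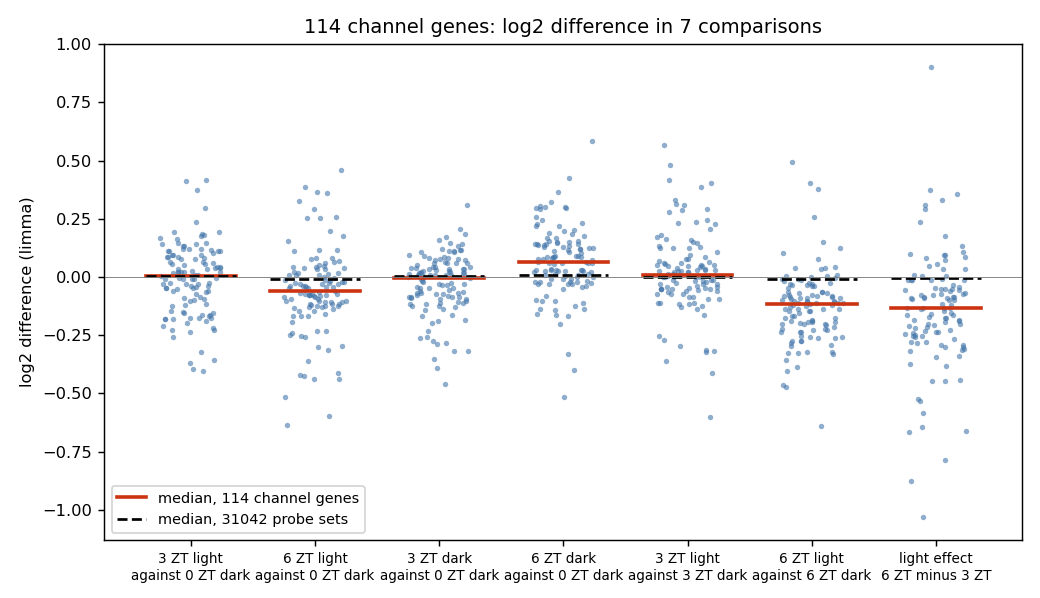
Log2 difference (vertical axis, limma, 15 arrays) of each of the 114 channel genes in 7 comparisons (horizontal axis). Each point is a gene, the red line is the median of the channel genes and the dashed line that of all 31042 probe sets; the red line lies at −0.12 in 6 ZT light against 6 ZT dark and at 0.07 in 6 ZT dark against 0 ZT dark, where the dashed line lies at −0.01 and 0.01.

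The other comparisons were more even or pointed the other way. In 6 ZT dark against 0 ZT dark 80 channel genes were higher and 34 lower, with a median of 0.07 (0.01 over all probe sets), and 30 were higher and 4 lower in 3 of 3 replicas (15.5% and 15.1%). Without 0 ZT dark replica 1, an array with weak 5′ signal, the counts were 98 and 16, and without 0 ZT dark replica 2 they were 72 and 42. The 6 ZT dark arrays enter both this comparison and that with 6 ZT light, in opposite senses. Against 0 ZT dark, 6 ZT light had 37 higher and 77 lower (median −0.06), and 10 were higher and 14 lower in 3 of 3 replicas (12.3% and 9.38% of all probe sets). For 3 ZT light 58 were higher and 56 lower (median 0.01), with 10 and 6 in 3 of 3 replicas (11.8% and 11.0%). For 3 ZT dark 56 were higher and 58 lower (median −0.00), with 10 and 15 in 3 of 3 replicas (7.78% and 8.52%). In 3 ZT light against 3 ZT dark 64 were higher and 50 lower, with a median of 0.01 and with 4 and 8 in 3 of 3 replicas (7.71% and 9.43%). The light effect at 6 ZT minus that at 3 ZT was below 0 for 91 of 114 genes, with a median of −0.13, and was above 0 for 7 and below 0 for 31 in 3 of 3 replicas (16.6% and 15.5%).

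Markers of tissues next to the retina differed in the same comparison, 6 ZT light against 6 ZT dark. All 12 lens markers were lower in light, with a median of −1.77 and list means of 8.71 to 11.72 against 11.90 to 12.68. All 9 measured pigment epithelium markers were higher, with a median of 0.67 and list means of 11.33 to 12.24 against 10.63 to 11.44. All 7 rod markers were higher, with a median of 0.07. All 8 microglia markers were lower, with a median of −0.09, as were 8 of 10 amacrine and horizontal cell markers (−0.09) and 9 of 10 ganglion cell markers (−0.40). In 6 ZT dark against 0 ZT dark all 12 lens markers were higher (median 1.28) and all 9 pigment epithelium markers lower (−0.45). The part of these markers in the channel genes' differences was not tested.

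By class, the calcium channel pores were evenly divided in 6 ZT light against 6 ZT dark, with 5 of 10 *Cacna1* genes higher and a median of −0.02. The α2δ subunits (1 of 2 higher, median 0.05) and the β subunits (2 of 4 higher, −0.08) were likewise divided. In the other classes few genes were higher. None of the 8 γ subunits (median −0.14), 3 HCN channels (−0.26), 9 sodium channel α subunits (−0.18) and 3 sodium channel β subunits (−0.28) was higher, and so it was for 1 of 13 potassium auxiliary subunits (−0.15), 1 of 11 potassium channels of the K2P family (−0.15), 1 of 15 inward rectifiers (Kir, −0.08), 2 of 24 voltage-gated potassium pores (Kv, −0.12), 1 of 7 silent Kv subunits (−0.11) and 1 of 5 calcium- or sodium-activated potassium pores (−0.02). In the replicas the medians of the sodium channel α subunits were −0.32, 0.13 and −0.05, and those of the β subunits −1.04, 0.03 and −0.18, so that replica 1 carried these classes. No difference between classes was tested.

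**Figure D2:**
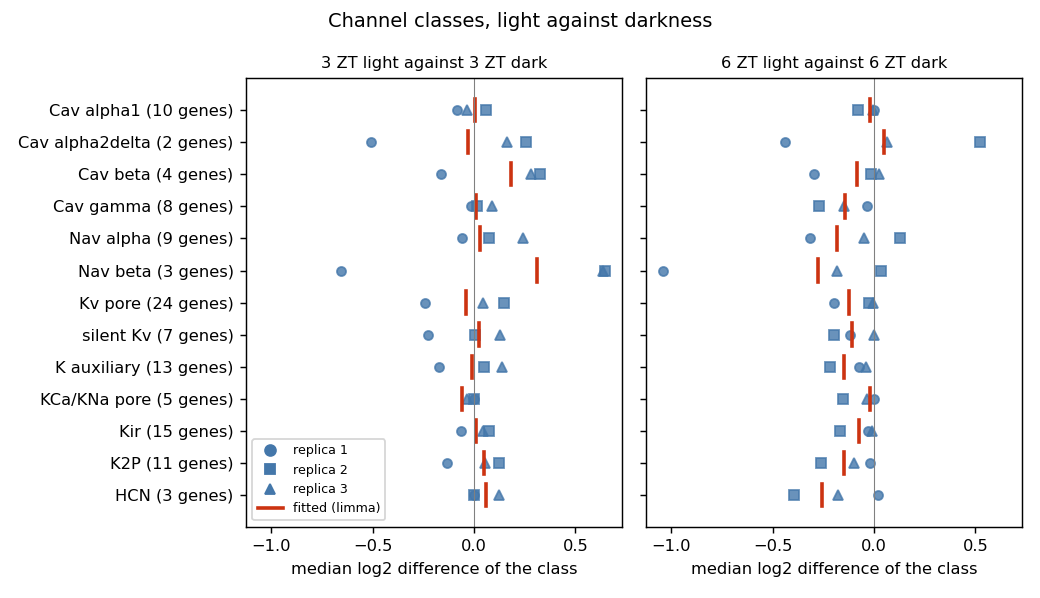
Median log2 difference (horizontal axis) of each channel class (vertical axis, number of genes in brackets) in light against darkness at 3 ZT and at 6 ZT. Blue symbols are the medians in replicas 1, 2 and 3 and red lines those of the fitted differences; at 6 ZT the fitted median of the Nav α subunits was −0.18 with replicas at −0.32, 0.13 and −0.05.

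*Cacnb2*, which encodes the β2 subunit that brings L-type channels to the membrane of photoreceptor terminals, had its highest values in 6 ZT light. Its brightest probe set read 12.07, 12.12 and 11.86 in the 3 replicas of 0 ZT dark, 11.94, 12.18 and 12.24 in 3 ZT dark and 12.36, 12.17 and 12.22 in 3 ZT light. At 6 ZT the values were 12.09, 12.12 and 12.22 in darkness and 12.40, 12.43 and 12.37 in light. The 3 values of 6 ZT light thus lay above those of the other 12 arrays. It stood 0.39 above 0 ZT dark on the log2 scale (standard error 0.0998, adjusted p = 0.443) and 0.26 above 6 ZT dark (adjusted p = 0.553), higher in 3 of 3 replicas in both. In 3 ZT light the difference from 0 ZT dark was 0.23 (adjusted p = 0.648).

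The other probe sets of *Cacnb2* had the same direction at 6 ZT. The second read 11.60, 11.55 and 11.34 in 0 ZT dark, 11.58, 11.46 and 11.68 in 6 ZT dark and 11.76, 11.76 and 11.87 in 6 ZT light, where the light values overlapped with neither dark group. Its differences were 0.30 from 0 ZT dark (adjusted p = 0.618) and 0.23 from 6 ZT dark (adjusted p = 0.575). The third read 8.51, 8.73 and 9.44 in 0 ZT dark, 9.12, 9.24 and 10.00 in 6 ZT dark and 9.40, 9.66 and 10.26 in 6 ZT light, so that the groups overlapped and each light value was above the dark values of its own number. It differed by 0.88 from 0 ZT dark (standard error 0.281, adjusted p = 0.605) and by 0.32 from 6 ZT dark (standard error 0.281, adjusted p = 0.737). In 3 ZT light its value in replica 2, an array with weak 5′ signal, was 7.93, against 9.35 and 9.89 in the others.

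The pores that β2 can join, Cav1.3 and Cav1.4, did not share one pattern. *Cacna1d* (Cav1.3) read 7.59, 8.44 and 8.81 in 0 ZT dark, 7.72, 8.44 and 8.94 in 6 ZT dark and 7.84, 9.14 and 9.25 in 6 ZT light. The light value was the highest of its replica number in replicas 2 and 3. It differed by 0.46 from 0 ZT dark (standard error 0.148, adjusted p = 0.605) and by 0.38 from 6 ZT dark (0.12, 0.70 and 0.31 in the replicas, adjusted p = 0.553), and by 0.22 without 6 ZT light replica 2. The other 2 probe sets of *Cacna1d* differed by −0.18 and −0.04 between light and darkness at 6 ZT, and by −0.11 and −0.03 from 0 ZT dark. *Cacna1f* (Cav1.4, the pore at rod and cone ribbons) read 11.76, 11.51 and 11.93 in 3 ZT dark and 11.66, 11.14 and 11.46 in 3 ZT light, lower in 3 of 3 replicas. The difference was −0.31 (adjusted p = 0.895), and −0.17 without 3 ZT light replica 2. At 6 ZT it differed by 0.04 (0.28, −0.15 and 0.00 in the replicas).

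Of the other β subunits, *Cacnb3* had the most negative 6 ZT light difference of any channel gene and was chosen after its values were seen. It read 10.35, 11.19 and 10.47 in 6 ZT dark and 9.84, 10.26 and 9.99 in 6 ZT light, and all 3 light values were below the dark ones. The difference was −0.64 (standard error 0.284, adjusted p = 0.581). Among further pores, *Cacna1a* (P/Q-type) read 8.56, 8.99 and 9.01 in 6 ZT dark and 8.51, 8.64 and 8.88 in 6 ZT light, a difference of −0.18 from 6 ZT dark and of −0.15 from 0 ZT dark (adjusted p = 0.553 and 0.825). Its other 4 probe sets were all lower in the first comparison, from −0.37 to −0.04. *Cacna1c* (Cav1.2) differed by −0.14 in 6 ZT dark against 0 ZT dark (adjusted p = 0.641), and its second probe set by 0.10. For *Cacna2d1*, the brightest α2δ subunit, the replicas of 6 ZT light against 6 ZT dark ran from −0.50 to 0.34.

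The region around a RefSeq transcript start of 3 of these genes is shown because the results turn on them. *Kcne4* had the lowest p of all channel genes, *Cacnb2* the lowest among those higher in 6 ZT light against 0 ZT dark, and *Cacna1f* encodes the photoreceptor calcium pore. Each run holds 250 bases before and 50 after the transcript start taken from RefSeq in GRCr8, 5′ to 3′ on the strand of the gene. For *Kcne4* and *Cacnb2* that start lies inside the annotated gene and not at its first base. Capitals mark a match to 1 of 3 motifs searched on both strands. These are TAATCC (the core bound by Crx and Otx2), AGGTCA (bound by nuclear receptors) and CACGTG (the E-box). *Kcne4* lies at chr9:87695798-87696097 on the + strand, *Cacnb2* at chr17:82472965-82473264 on the + strand and *Cacna1f* at chrX:17568259-17568558 on the − strand.
Kcne4: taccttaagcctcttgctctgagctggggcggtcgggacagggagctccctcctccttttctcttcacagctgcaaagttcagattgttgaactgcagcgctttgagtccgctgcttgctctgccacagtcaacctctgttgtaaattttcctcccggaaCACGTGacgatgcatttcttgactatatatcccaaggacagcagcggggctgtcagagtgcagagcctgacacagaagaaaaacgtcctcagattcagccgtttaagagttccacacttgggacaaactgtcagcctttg
Cacnb2: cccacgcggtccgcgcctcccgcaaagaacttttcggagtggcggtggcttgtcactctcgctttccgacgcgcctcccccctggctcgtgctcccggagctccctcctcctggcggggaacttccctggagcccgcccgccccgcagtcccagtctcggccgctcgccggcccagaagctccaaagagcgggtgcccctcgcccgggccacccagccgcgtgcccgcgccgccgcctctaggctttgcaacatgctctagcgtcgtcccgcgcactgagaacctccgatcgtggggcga
Cacna1f: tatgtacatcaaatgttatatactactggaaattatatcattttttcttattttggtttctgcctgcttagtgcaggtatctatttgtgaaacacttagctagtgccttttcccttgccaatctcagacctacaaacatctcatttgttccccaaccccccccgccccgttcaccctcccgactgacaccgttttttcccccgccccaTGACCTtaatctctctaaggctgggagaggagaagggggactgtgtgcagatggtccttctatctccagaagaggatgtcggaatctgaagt
The E-box of *Kcne4* spans bases −90 to −85 from the start, and the AGGTCA of *Cacna1f*, read on the opposite strand, spans −42 to −37. The window of *Cacnb2* holds none of the 3 letter strings. Over the 27457 rat promoters of this length, 7.11% hold TAATCC, 15.7% AGGTCA and 6.65% CACGTG, and a match is a description of letters only. A share over the channel genes was not computed, since 79 of 114 (69.3%) had an entry, under the 80% set as the minimum.

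*Kcne4*, an auxiliary subunit that damps several Kv channels, had a fitted level below that of 0 ZT dark in each later condition. It read 8.53, 9.24 and 8.31 in 0 ZT dark, 8.37, 8.78 and 8.07 in 3 ZT dark and 8.02, 8.88 and 8.50 in 3 ZT light. At 6 ZT the values were 8.11, 8.78 and 7.99 in darkness and 7.91, 8.31 and 7.95 in light. Within each replica number 6 ZT light was the lowest of the 5. The difference of 6 ZT light from 0 ZT dark was −0.63 (standard error 0.139, adjusted p = 0.355), lower in 3 of 3 replicas. That of 6 ZT dark was −0.40 (adjusted p = 0.523), of 3 ZT dark −0.28 (adjusted p = 1.0) and of 3 ZT light −0.23 (adjusted p = 0.702), where replica 3 was 0.18 higher. Light against darkness at 6 ZT differed by −0.24 (adjusted p = 0.639). When arrays were weighted by their quality, the first of these passed (−0.58, adjusted p = 0.0414), where 511 probe sets in all were called higher and 165 lower.

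*Kcns3*, a silent Kv subunit that forms no channel on its own, had lower values at 6 ZT in 3 of 3 replicas, in darkness and in light. It read 8.98, 9.43 and 8.92 in 0 ZT dark, 8.62, 8.86 and 8.30 in 6 ZT dark and 8.39, 9.12 and 8.58 in 6 ZT light. All 3 values of 6 ZT dark lay below all 3 of 0 ZT dark. The differences from 0 ZT dark were −0.51 in darkness (standard error 0.163, adjusted p = 0.497) and −0.41 in light (adjusted p = 0.770), and 3 ZT dark stood at −0.27 (adjusted p = 1.0). In 3 ZT light the difference was −0.04, with replicas at −0.51, 0.33 and 0.06.

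*Kcnv2*, the silent subunit found in photoreceptors, had lower values at 3 ZT under light than in darkness. It read 11.97, 11.96 and 12.11 in 3 ZT dark and 11.71, 10.85 and 11.68 in 3 ZT light, and the groups did not overlap. The difference was −0.60 (standard error 0.189, adjusted p = 0.895), and −0.34 without 3 ZT light replica 2, which holds the lowest value and is 1 of the arrays with weak 5′ signal. Against 0 ZT dark (11.50, 11.90 and 12.02) the replicas of 3 ZT light ran 0.21, −1.05 and −0.34. At 6 ZT the values were 11.91, 11.95 and 11.96 in darkness and 11.61, 11.48 and 12.04 in light, a difference of −0.23 (adjusted p = 0.723). Its second probe set differed by −0.25 at 3 ZT and −0.62 at 6 ZT (adjusted p = 0.910 and 0.590). Markers of several retinal cell types were lower too in 3 ZT light against 3 ZT dark, all 6 measured for bipolar cells (median −0.71, with 4 at an unadjusted p under 0.05), all 6 for cones (−0.22) and all 7 for Müller glia (−0.21). Mostly higher were 3 lists, with 11 of 12 lens markers (median 0.49), 7 of 10 for ganglion cells (0.20) and 6 of 9 for the pigment epithelium (0.04). Of the 7 rod markers 5 were lower, with a median of −0.03. Lower too were 6 of 7 for blood and vessel (−0.12), 5 of 8 for microglia (−0.01) and 3 of 5 for ciliary body or muscle (−0.03). Those of amacrine and horizontal cells were split, 5 higher and 5 lower (0.02). The part of these markers in the differences of *Kcnv2*, *Cacna1f*, *Kcnj14* and *Kcnma1* at 3 ZT was not tested.

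*Kcne2*, another auxiliary subunit of Kv and HCN channels, was higher in light in 3 of 3 replicas at 6 ZT. It read 10.19, 10.21 and 10.39 in 0 ZT dark, 10.085, 10.574 and 10.687 in 3 ZT dark and 10.96, 10.48 and 10.59 in 3 ZT light. At 6 ZT the values were 10.31, 9.98 and 10.38 in darkness and 10.59, 10.44 and 10.85 in light. Each light group lay above 0 ZT dark without overlap, but at 3 ZT light was above darkness of the same number in replica 1 only. The differences from 0 ZT dark were 0.41 at 3 ZT (adjusted p = 0.626) and 0.36 at 6 ZT (adjusted p = 0.805), and that from 6 ZT dark was 0.40 (adjusted p = 0.562). The name of this probe set marks probes that can also bind other transcripts. The second probe set was likewise higher in light at 6 ZT in 3 of 3 replicas, with 10.45, 10.42 and 10.90 in darkness and 10.91, 10.63 and 11.08 in light. Its replicas of 3 ZT light read 10.84, 8.16 and 10.92. The third probe set differed by 0.01 between light and darkness at 6 ZT and by −0.19 between 6 ZT light and 0 ZT dark.

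Other auxiliary subunits differed by less or in few replicas. *Kcnip4*, the brightest of the class and a calcium-binding partner of Kv4 channels, was lower in 3 of 3 replicas of 6 ZT dark than in 0 ZT dark (−0.07, −0.15 and −0.22), while its second probe set was on the higher side (0.37, 0.28 and −0.04). *Kcnip2*, a further Kv4 partner, differed by −0.32 in 3 ZT dark against 0 ZT dark (adjusted p = 1.0), where *Kcne3* differed by 0.16 and the sodium-activated pore *Kcnt1* by 0.17. The other 2 probe sets of *Kcnip2* differed by 0.09 and 0.08, and for *Kcnt1* the mean over its 3 probe sets gave −0.07. *Kcnip1* had exactly the same value, 11.70, in 4 arrays of replica 2, and its difference at 6 ZT was −0.22, with −0.61 from replica 1. *Kcnab2* (Kvβ2) differed by −0.26 in 3 ZT light against 0 ZT dark (adjusted p = 0.656), with −0.09, 0.16 and −0.05 in its other probe sets.

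*Kcnma1*, the pore of the large-conductance calcium-activated (BK) channel, was lower in light at 3 ZT and higher in light at 6 ZT in every replica. It read 11.46, 12.17 and 11.91 in 0 ZT dark, 11.81, 12.18 and 12.48 in 3 ZT dark and 11.31, 11.87 and 12.06 in 3 ZT light. At 6 ZT the values were 11.10, 11.65 and 12.19 in darkness and 11.33, 12.79 and 12.29 in light. The groups overlapped, and the pattern shows within replica numbers. The log2 difference of light from darkness was −0.41 at 3 ZT (adjusted p = 0.895) and 0.49 at 6 ZT (standard error 0.196, adjusted p = 0.556). The light effect at 6 ZT minus that at 3 ZT was 0.90 (standard error 0.277, adjusted p = 0.776), with 0.73, 1.46 and 0.53 in the replicas. Without 6 ZT light replica 2 it was 0.64, and the 6 ZT effect 0.22. The second probe set had −0.26, 0.24 and a change of 0.50, while the third, the dimmest, had 0.06, −0.09 and −0.15.

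**Figure D3:**
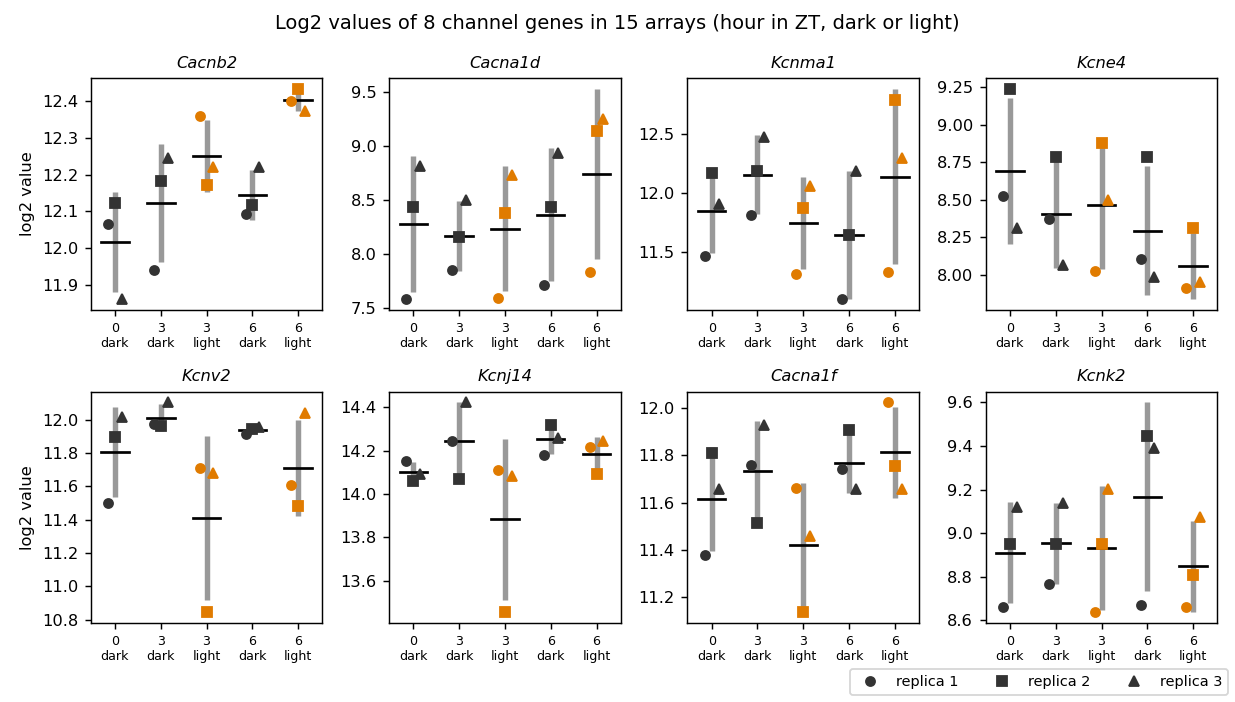
Log2 values (vertical axes) of the brightest probe set of 8 channel genes in the 15 arrays, by condition (horizontal axes). Circles, squares and triangles are replicas 1, 2 and 3, orange symbols are light samples, and black lines with grey bars give mean ± SD (n = 3); for *Cacnb2* the 6 ZT light values (12.37 to 12.43) lie above all others, and for *Kcnv2*, *Kcnj14* and *Cacna1f* the lowest value is 3 ZT light replica 2.

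Of the inward rectifiers, which carry potassium into cells more easily than out, *Kcnj14* (Kir2.4) was the brightest. It read 14.24, 14.07 and 14.42 in 3 ZT dark and 14.11, 13.46 and 14.09 in 3 ZT light, lower in 3 of 3 replicas with overlapping groups. The difference was −0.36 (standard error 0.130, adjusted p = 0.895), and −0.18 without 3 ZT light replica 2, which again holds the lowest value. At 6 ZT it was −0.07 (0.03, −0.23 and −0.01 in the replicas). *Kcnj10* (Kir4.1, the main potassium channel of Müller glia) was measured by a dim probe set, with 7.0% of all probe sets below it. It read 5.25, 5.31 and 5.42 in 0 ZT dark, 5.33, 5.50 and 5.69 in 6 ZT dark and 5.58, 5.47 and 5.70 in 6 ZT light, higher than the control of the same number in every later array. The differences from 0 ZT dark were 0.25 in 6 ZT light (adjusted p = 0.476), 0.18 in 6 ZT dark (adjusted p = 0.537), 0.15 in 3 ZT light and 0.12 in 3 ZT dark.

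*Kcnj13* (Kir7.1), the inward rectifier of the pigment epithelium, was on the lower side while the markers of that tissue were on the higher side. It read 7.54, 7.79 and 7.85 in 6 ZT dark and 7.35, 7.51 and 7.91 in 6 ZT light, a difference of −0.14 (standard error 0.0969, adjusted p = 0.689), beside a median of 0.67 for the 9 markers. Replica 3 was higher in light, and the probe set lay below the median signal, with 36.7% of all probe sets below it. *Kcnj2* (Kir2.1) differed by −0.14 in the same comparison (adjusted p = 0.628). *Kcnj3* (GIRK1, gated by G proteins) read 6.90, 8.44 and 7.83 in 0 ZT dark and 7.46, 8.96 and 7.87 in 3 ZT light. The difference of 0.37 (standard error 0.119, adjusted p = 0.566) had the lowest p among channel genes in that comparison, with 0.56, 0.52 and 0.04 in the replicas. The other 2 probe sets of *Kcnj3* disagreed, with −0.14 and 0.25. From 3 ZT dark it differed by 0.29 (adjusted p = 0.895), and *Kcnj12* (Kir2.2) by 0.16.

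K2P channels hold the resting potential, and 10 of 11 had a lower fitted value in light at 6 ZT, none past the test. *Kcnk2* (TREK-1) had the lowest p of the channel genes in that comparison. It read 8.67, 9.45 and 9.39 in 6 ZT dark and 8.66, 8.81 and 9.07 in 6 ZT light, a difference of −0.32 (standard error 0.105, adjusted p = 0.518) made by replicas 2 and 3, since replica 1 had −0.01. In 6 ZT dark it stood 0.26 above 0 ZT dark (adjusted p = 0.546). The second probe set of *Kcnk2* differed by −0.10 in light against darkness and, in the opposite direction, by −0.24 in 6 ZT dark against 0 ZT dark (adjusted p = 0.916 and 0.788). *Kcnk13* (THIK-1) read 7.21, 7.65 and 7.49 in 6 ZT dark and 7.07, 7.14 and 7.36 in 6 ZT light. The groups overlapped, light was lower in 3 of 3 replicas, and the difference was −0.26 (adjusted p = 0.542). *Kcnk3* (TASK-1) differed by −0.24, with −0.80 from replica 2 and 0.05 and 0.04 from the others, and *Kcnk1* (TWIK-1) by −0.09.

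HCN channels, which open on hyperpolarization and speed the recovery of the photoreceptor voltage, had fitted differences above 0 for 3 of 3 genes in 6 ZT dark against 0 ZT dark and below 0 for 3 of 3 in 6 ZT light against 6 ZT dark, and both comparisons hold the 6 ZT dark arrays. *Hcn2* read 9.89, 10.12 and 9.84 in 0 ZT dark, 10.07, 10.64 and 10.04 in 6 ZT dark and 10.22, 9.84 and 9.86 in 6 ZT light. It differed by 0.30 and −0.28 (adjusted p = 0.583 and 0.604), and replica 1 was 0.15 higher in light. *Hcn3* differed by 0.30 (standard error 0.109, adjusted p = 0.532) and −0.26 (adjusted p = 0.571), lower in light in 3 of 3 replicas. *Hcn4*, outside the rule for named genes and chosen after its values were seen, differed by 0.13 and −0.20.

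The γ subunits, of which *Cacng2* and its relatives also escort AMPA-type glutamate receptors, had 8 of 8 genes higher in 6 ZT dark against 0 ZT dark (median 0.15) and 8 of 8 lower in 6 ZT light against 6 ZT dark. *Cacng5* read 6.15, 6.86 and 6.92 in 0 ZT dark, 6.55, 7.03 and 7.44 in 6 ZT dark and 6.46, 6.76 and 6.94 in 6 ZT light. The differences were 0.36 (standard error 0.117, adjusted p = 0.502) and −0.29 (adjusted p = 0.562), with 3 of 3 replicas on the same side in each. The change of its light effect between 3 and 6 ZT was −0.44 (adjusted p = 0.776). *Cacng2* differed by −0.36 in 6 ZT light against 6 ZT dark (−0.59, −0.38 and −0.10 in the replicas, adjusted p = 0.631).

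Among the voltage-gated potassium pores, *Kcnh8* had the lowest p in 6 ZT light against 6 ZT dark. It read 6.86, 7.04 and 7.24 in darkness and 6.48, 7.04 and 6.92 in light, a difference of −0.24 (adjusted p = 0.524). All 5 arrays of replica 2 hold exactly the value 7.04, which no other channel gene showed, and exactly equal values between arrays of 1 number occurred in 81 of 114 channel genes (71.05%, and 71.16% of all probe sets). *Kcna6* (Kv1.6) differed by −0.32 in 3 ZT light from both 0 ZT dark and 3 ZT dark (adjusted p = 0.649 and 0.895), where its other probe sets had 0.08 and 0.01, and 0.10 and −0.01. *Kcna5* (Kv1.5) differed by −0.30 from 3 ZT dark. For *Kcna5* the light effect at 6 ZT minus that at 3 ZT was 0.33 (adjusted p = 0.776).

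Some sodium channels and fast potassium channels of spiking neurons differed widely between replicas of one condition. The following 9 genes were grouped after their values were seen, so that their likeness follows from the choice and the counts over them are a description only: *Scn1a*, *Scn2a*, *Scn3b* and *Scn4b*, and the potassium pores *Kcna1*, *Kcna2*, *Kcnc1*, *Kcnc2* and *Kcnd2*. *Scn1a* (Nav1.1) read 11.46, 11.90 and 11.47 in 0 ZT dark, 10.75, 11.96 and 12.13 in 3 ZT light and 10.07, 12.14 and 11.85 in 6 ZT light. *Scn4b*, a β subunit that aids resurgent current, read 10.24, 9.61 and 9.62 in 0 ZT dark, 8.71, 10.45 and 10.30 in 3 ZT light and 8.49, 9.63 and 9.56 in 6 ZT light. For both genes replica 1 of the light conditions held the lowest values.

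*Kcnc2* (Kv3.2), the brightest Kv pore, read 11.73, 11.78 and 11.46 in 0 ZT dark, 10.91, 12.80 and 12.15 in 3 ZT light and 10.38, 12.02 and 11.85 in 6 ZT light. Against 0 ZT dark of the same number, all 9 genes were lower in 3 ZT light replica 1 (median −0.86), 8 were higher in replica 2 (0.84) and 9 in replica 3 (0.67). In 6 ZT light all 9 were lower in replica 1 (median −1.38), and the medians of replicas 2 and 3 were 0.08 and 0.26. In darkness replica 1 of 3 ZT had all 9 lower as well (−0.45), and replica 3 of 6 ZT all 9 higher (0.25). None of the 3 fitted differences given next passed the test, with −0.25 for *Scn1a* in 6 ZT light against 0 ZT dark (standard error 0.350), −0.36 for *Scn2a* (0.344) and −0.44 for *Scn3b* (0.340). For *Kcnc2* the other 5 probe sets ran from −0.05 to 0.36 in that comparison, where the brightest had −0.24. *Scn8a*, not among the 9, read 5.78 in replica 1 of both 0 ZT dark and 3 ZT light.

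**Figure D4:**
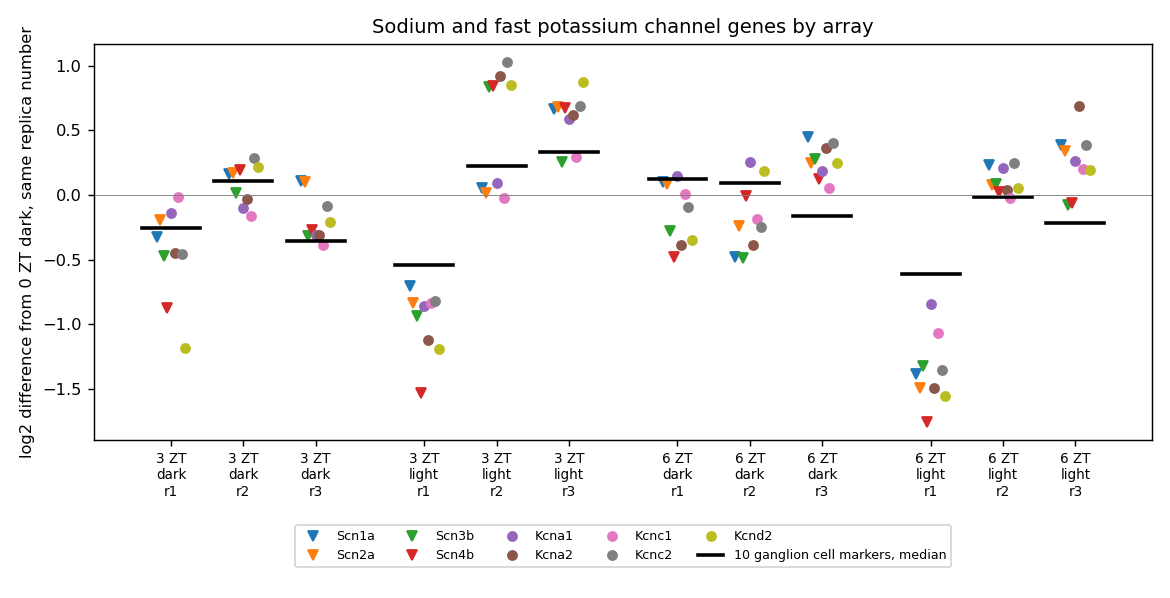
Log2 difference (vertical axis) of 9 sodium and fast potassium channel genes from the 0 ZT dark array of the same replica number, in the 12 later arrays (horizontal axis). Triangles are *Scn* genes, circles *Kcn* genes and black lines the median of 10 ganglion cell markers; in 6 ZT light the 9 genes have medians of −1.38, 0.08 and 0.26 in replicas 1 to 3.

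Markers of ganglion cells are given beside these genes. The medians of the 10 measured markers in the same arrays were −0.54, 0.23 and 0.34 in 3 ZT light and −0.62, −0.02 and −0.21 in 6 ZT light, so that replica 1 was lowest in the markers as well. The signs matched those of the 9 channel genes in each replica of 3 ZT light and, in 6 ZT light, in replica 1 only. In 3 ZT dark the marker medians were −0.25, 0.11 and −0.36. Those of the 9 channel genes were −0.45, 0.16 and −0.27, of the same sign in each replica. In 6 ZT dark the marker medians were 0.12, 0.09 and −0.17. There the 9 channel genes had −0.10, −0.24 and 0.25, opposite in sign in each replica. In 6 ZT light against 6 ZT dark 9 of the 10 markers were lower, with a median of −0.40 and list means of 11.62, 12.22 and 12.27 against 12.42, 12.34 and 12.38. None of the markers was near the floor of the array, the dimmest, *Pou4f1*, lying at 7.94. Their part in the channel differences was not tested. Without the 9 channel genes, 90 of the remaining 105 were lower in 6 ZT light against 6 ZT dark, with a median of −0.11.

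For *Kcnd2* (Kv4.2) and *Scn4b* the light effect at 6 ZT was less than 0.7 times that at 3 ZT in all 3 replicas, which 0.509% of all probe sets showed. On the log2 scale the change was −1.03 for *Kcnd2* (standard error 0.499, adjusted p = 0.776), with −1.19, −0.76 and −1.14 in the replicas, and −0.79 for *Scn4b* (standard error 0.553, adjusted p = 0.778). *Scn10a* (Nav1.8, known from sensory neurons) differed by −0.23 in 6 ZT light against 6 ZT dark (adjusted p = 0.524), and *Scn8a* (Nav1.6), measured by a dim probe set, by −0.08. *Scn11a* and *Kcnk13* had changes of −0.29 and −0.34 in the light effect between 3 and 6 ZT (adjusted p = 0.776 each).

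Where a gene had several probe sets, these did not always move together. In 6 ZT light against 6 ZT dark all probe sets of a gene shared their direction in 31 of 42 genes, and in 3 ZT light against 3 ZT dark in 14 of 42. The count was 15 in 3 ZT light against 0 ZT dark and 23 in 6 ZT light.

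Other genes that set or clear membrane current, such as photoreceptor cation channels, exchangers, calcium pumps, chloride channels and release site proteins, were listed as partners, and 53 of 61 were measured. None passed in any comparison. In 6 ZT light against 6 ZT dark 25 of the 53 were higher and 28 lower, with a median of −0.01, and in 6 ZT dark against 0 ZT dark 33 were higher (median 0.07). The lowest p among them belonged to *Rims2*, a release site protein of ribbon synapses, in 6 ZT light against 0 ZT dark (0.58, standard error 0.180, adjusted p = 0.572), where *Trpc6* was the first on the lower side (−0.19, adjusted p = 0.891). In 6 ZT light against 6 ZT dark these were *Slc24a4*, a sodium-calcium-potassium exchanger (0.47, adjusted p = 0.562), and *Cngb1*, a subunit of the rod cation channel gated by cyclic nucleotides (−0.26, adjusted p = 0.614). In 3 ZT light against 3 ZT dark *Bsn* (0.44) and *Ryr1* (−0.42) had adjusted p-values of 0.895.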

How the data were processed

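Retinal RNA of rats in 5 conditions, each with 3 replicas, was hybridised to Affymetrix arrays. The deposited log2 values, which the authors computed by Robust Multi-array Average, were used as given. Whether replica numbers were normalized apart is not given in the sources used here. Symbols came from the array annotation and were checked against RefSeq through Entrez identifiers, all 114 of which matched. The members and all gene lists were chosen with earlier results of these data known.

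All 15 arrays entered one limma model (version 3.58.1, R 4.3.3) holding a term for condition and one for replica number. The p-values were adjusted by Benjamini-Hochberg over 31042 probe sets, with 0.05 as the threshold. Before the fit, 57 control probe sets were removed. The replica number served as a block since the methods compare within it, and the deviations of same-numbered arrays correlated in all 30 pairs (r from 0.241 to 0.797) and were closest to their own number in 60 of 60 checks, which processing could also give. Ratios were set to 0 ZT dark of the same number.

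Named genes are channels with a known retinal role, the 3 lowest p per direction and comparison, the brightest of each class, those passing the ratio rule, and the partners with the lowest p, 46 channel genes in all. *Cacnb3* and *Hcn4* lie outside this rule. The fit was tested on simulated data. Alternatives were no replicate block, cyclic loess or quantile normalization, array weights, omission of dim probe sets, only the compared conditions, the mean over probe sets, both arrays of high *Actb* difference left out, and each array left out in turn. Leaving out the 9 sodium and fast potassium channel genes was chosen after seeing the data. Promoters and coordinates were taken from RefSeq (GRCr8). Figures were drawn with matplotlib 3.10.9.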

Additional observations from a re-analysis of the deposited data

Results flagged for a closer look

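The effect of light had opposite signs at 3 and 6 ZT in every replica for 4 of the named channel genes, which is what brought them here. The share of all probe sets with such opposite signs was not computed, so the count cannot be called high or low. All 4 had also been named for a low p in comparisons of light with darkness or of the light effects. The probe set of *Kcnj12* was dim, with 16.5% of all probe sets below it. For *Kcnma1* (BK pore) the light effect at 6 ZT minus that at 3 ZT was 0.90, from −0.41 and 0.49. For *Kcnj3* (GIRK1) it was −0.38, from 0.29 and −0.09, for *Kcnj12* (Kir2.2) −0.28, from 0.16 and −0.11, and for *Scn11a* (Nav1.9) −0.29, from 0.15 and −0.14. The difference itself was tested in limma and did not pass for any of the 4, with an adjusted p of 0.776 each. The other 2 probe sets of *Kcnj3* gave 0.01 and −0.20 for this difference, and those of *Kcnma1* 0.50 and −0.15.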

How the results depend on the processing

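No channel gene passed an adjusted p of 0.05 under the alternatives tried, the fit with no replicate block and each of the 15 arrays left out included, except when arrays were weighted by quality. The weights then called 1 channel gene in 6 ZT light against 0 ZT dark (*Kcne4*, −0.58) and 9 in 6 ZT light against 6 ZT dark, among them *Kcnh8* (−0.33, adjusted p = 0.0166), *Scn10a* (−0.24) and *Cacna1d* (0.36), where 1511 probe sets in all were called higher and 800 lower. They ran from 0.160 (3 ZT light replica 2) to 7.45 (6 ZT light replica 3). The median log2 difference of the channel genes kept its sign in 6 ZT light against 6 ZT dark, in 6 ZT dark and in 6 ZT light against 0 ZT dark under every setting. With dim probe sets left out, over 50 genes, it was −0.0929 in 3 ZT light and −0.108 in 6 ZT light, each against 0 ZT dark. For 3 ZT dark and 6 ZT dark against 0 ZT dark it was then −0.0696 and 0.0288. In 6 ZT light against 6 ZT dark it was then −0.181, with replica medians of −0.418, 0.0 and 0.0. In 6 ZT light against 0 ZT dark it was −0.0184 with array weights, −0.0352 with the mean over probe sets, −0.0256 without both arrays of high *Actb* difference and −0.0440 without the 9 sodium and fast potassium genes. In 3 ZT dark it was −0.00918 after quantile and −0.00779 after cyclic loess normalization, −0.00532 with weights, 0.00356 with the mean over probe sets, 0.0151 without both arrays and 0.00647 without the 9 genes. With each array left out the medians ran, against 0 ZT dark, from −0.0250 to 0.0782 in 3 ZT light, from −0.0894 to −0.0266 in 6 ZT light, from −0.0540 to 0.0191 in 3 ZT dark and from 0.0547 to 0.0833 in 6 ZT dark, from −0.0246 to 0.0636 and from −0.144 to −0.106 in light against darkness at 3 and 6 ZT, and from −0.189 to −0.0967 for the difference of the light effects. Without the replicate block the medians were the same, as they must be when each condition has 1 array of each replica number. Of 1036 values of named genes under alternatives, 1031 kept direction and call, 4 passed with the weights and 1 turned, *Kcnt1* in 3 ZT dark (−0.0722 with the mean over probe sets, 0.17 with the brightest). The causes were not tested. A dim probe set compresses differences, and 64 of 114 channel genes lay below the median signal.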
